A study of Saccharomyces cerevisiae with 8 samples.

Results

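The Hsp70 family of Saccharomyces cerevisiae is followed here through 10 of its genes: SSA1 (YAL005C), SSA2 (YLL024C), SSA3 (YBL075C), SSA4 (YER103W), SSB1 (YDL229W), SSB2 (YNL209W), SSE1 (YPL106C), SSE2 (YBR169C), KAR2 (YJL034W) and SSC1 (YJR045C). They were found by systematic name among the 6225 systematic names on the array, and all 10 were measured, with 1 probe in 2 spots each. The cells were S288C, a common laboratory strain, in batch culture in minimal medium, and each of 8 arrays carried, in Cy5, RNA of exponentially growing cells sampled at 16, 17, 19, 20, 21, 22, 23 or 24 h. In Cy3 every array carried RNA of S288C cells aged 64 h, so a positive log2 ratio means a higher level in growing cells. No time had a second array, the dyes were never swapped, and the labels name no separate cultures. The p-values therefore cover no more than array-to-array scatter, which may be technical.

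Hsp70 proteins hold unfolded stretches of other proteins and release them in a cycle of ATP binding and hydrolysis. J-domain proteins speed the hydrolysis and nucleotide exchange factors reset the cycle. Yeast keeps Hsp70s in several places: Ssa proteins in the cytosol, Ssb proteins on translating ribosomes, Kar2 in the lumen of the endoplasmic reticulum and Ssc1 in the mitochondrial matrix. Sse proteins are the Hsp110 branch of the family and act as nucleotide exchange factors for Ssa and Ssb. Of the cytosolic genes, SSA2 is known as constitutive, SSA1 as expressed in growth and raised by heat, and SSA3 and SSA4 as low in growth and induced by stress.

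Facts of the whole series bear on what follows. The share of gene spots well above background was 84.1% to 91.6% per array for Cy5 and 89.5% to 91.1% for Cy3. Log2 ratios of any pair of arrays correlated across genes at 0.82 or more, where genes are not independent replicates. The arrays lay on 2 slides, slide 1 with those recorded at 16, 19, 22, 23 and 24 h and slide 2 with those at 17, 20 and 21 h. Across genes, the scanner file recorded at 20 h had a correlation of -0.49 to its own column of the authors' deposited table and of 0.97 to the 24 h column. The file recorded at 24 h had -0.39 to its own column and 0.93 to the 20 h column. Changes over time are for this reason given 3 ways: at the recorded times, on the 6 arrays outside this mismatch, and after exchanging the times of those 2 files. The mean ratio does not use these times other than through its error. The files of the 6 arrays each correlated best with their own column, that of 21 h at 0.63 and the others at 0.90 to 0.98.

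The first comparison set growing cells against cells aged 64 h. SSA2 was 3.68-fold higher in growing cells, and the ribosome-bound SSB1 and SSB2 were 1.38-fold and 1.36-fold higher. The stress-induced SSA3 and SSA4, SSA1, the Hsp110 genes, KAR2 and SSC1 were lower, from 1.45-fold for SSC1 to 6.47-fold for SSA3. By limma, with Benjamini-Hochberg adjustment over 5650 tested genes, 3 members were higher and 7 lower at a threshold of 0.05. Over all genes tested, 40.3% were higher and 42.6% lower by the same rule, so most genes on the array were called in 1 direction or the other. On all 8 arrays 3 members lay above 0 and 6 below 0, against 31.4% and 35.9% of all tested genes. At least 2-fold, 1 member was higher and 4 were lower, against 4.6% and 10.2% of all genes. The median of the 10 mean log2 ratios was -0.67, and that over all genes tested -0.02.

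**Figure D1:**
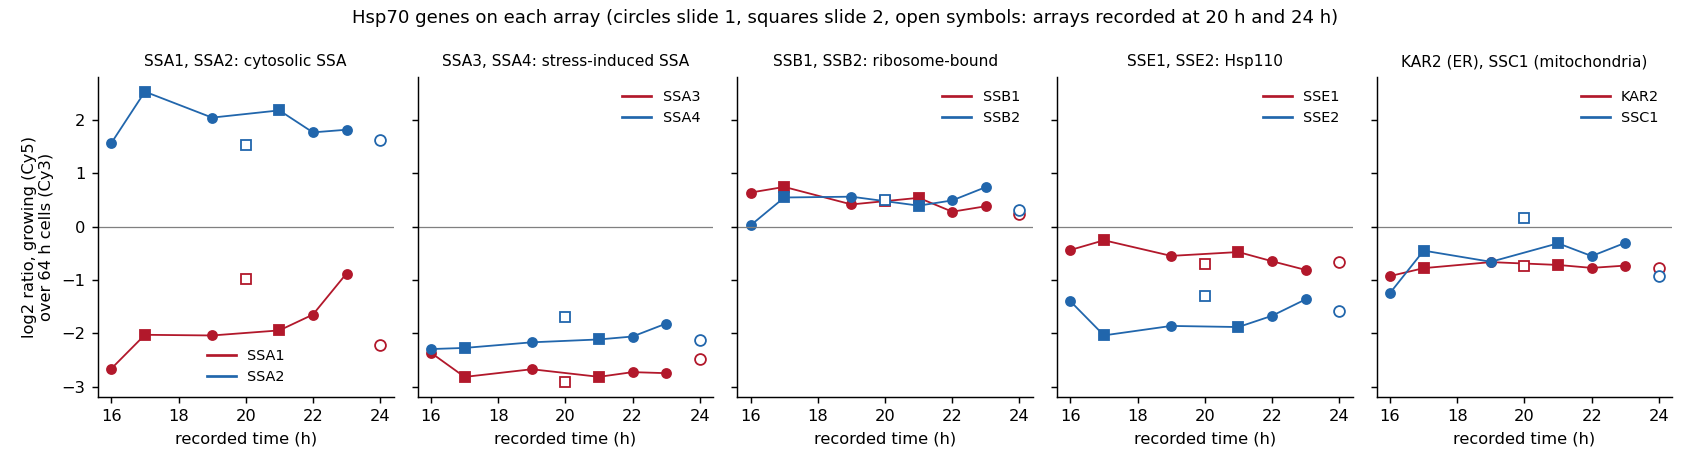
Log2 ratio of growing cells (Cy5) over 64 h cells (Cy3) for each Hsp70 gene on each array, against the recorded time in hours; circles are slide 1, squares slide 2, open symbols the arrays recorded at 20 h and 24 h, and lines join the other 6. SSA2 lies between 1.53 and 2.53 and SSA1 between -2.66 and -0.88, with no overlap.

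The cytosolic pair SSA1 and SSA2 lay on opposite sides of 0. SSA1 had log2 ratios of -2.66, -2.03, -2.04, -0.98, -1.95, -1.65, -0.88 and -2.22 on the arrays recorded at 16, 17, 19, 20, 21, 22, 23 and 24 h. SSA2 had 1.56, 2.53, 2.04, 1.53, 2.18, 1.76, 1.81 and 1.62 on the same arrays. Every SSA1 value was below 0 and every SSA2 value above it.

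On average SSA1 stood at -1.80 ± 0.17, or 3.49-fold lower in growing cells (SE, n = 8; limma adjusted p = 6.0e-06). SSA2 stood at 1.88 ± 0.11, or 3.68-fold higher (adjusted p = 1.9e-07), and ranked 31st from the highest of the 5650 genes. The difference SSA1 minus SSA2 within an array averaged -3.68 ± 0.74 (SD, n = 8) and was negative on 8 of 8 arrays. An exact two-sided sign-flip permutation test over the 8 arrays gave p = 0.0078, the smallest it can give, and 0.011 after adjustment over 10 pairs of members.

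The channel signals before normalization went in the same direction on each array. The SSA1 probe gave a median spot signal of 6296 to 30396.5 in Cy5, for growing cells, and 27922.5 to 44882.5 in Cy3, for 64 h cells. The SSA2 probe gave 20837 to 44915 in Cy5 and 5068 to 9230 in Cy3. The 2 SSA1 ranges overlapped, although Cy5 was the lower on each array. These are intensities of different probes, so the genes' levels may not be compared. They also carry no dye correction. Over all gene spots the median signal was lower in Cy5 than in Cy3 on every array, 992.5 against 1609 at 16 h. A comparison of a gene's 2 channels therefore keeps any dye bias. SSA1 and SSA2 are near-identical in sequence, and the files used here hold no probe sequences, so how far each probe also binds the other transcript was not tested.

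**Figure D2:**
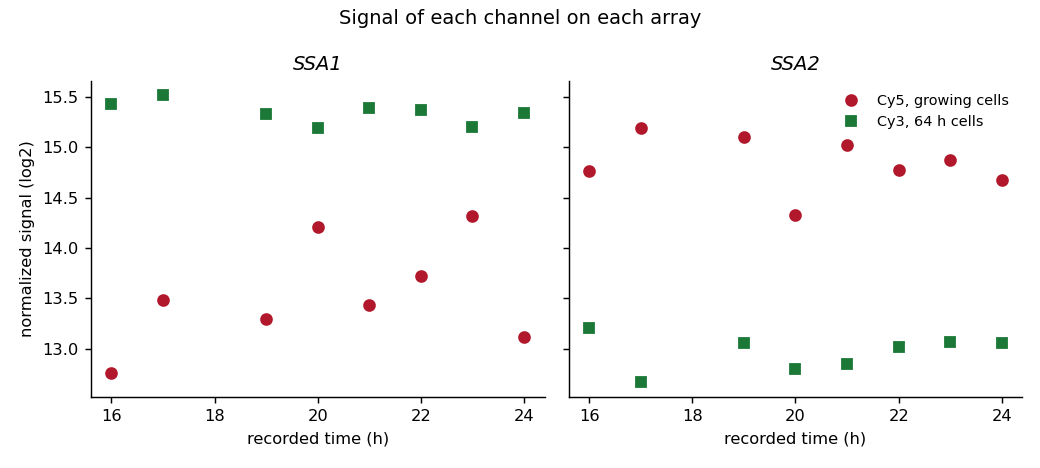
Normalized log2 signal of the SSA1 probe (left) and the SSA2 probe (right) on each array, against the recorded time in hours, for growing cells (Cy5, circles) and 64 h cells (Cy3, squares). In SSA1 the Cy5 points spread widely (SD 0.53) below a narrow band of Cy3 points (SD 0.11), and in SSA2 the Cy5 points lie above the Cy3 points on every array.

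The stress-induced pair was the lowest of the family. SSA3 had log2 ratios of -2.37, -2.82, -2.67, -2.92, -2.82, -2.73, -2.75 and -2.48 in the order of recorded time, and SSA4 had -2.30, -2.27, -2.17, -1.69, -2.12, -2.06, -1.82 and -2.13. SSA3 averaged -2.69 ± 0.06, 6.47-fold lower in growing cells (limma adjusted p = 8.5e-10), and SSA4 -2.07 ± 0.07, 4.20-fold lower (adjusted p = 4.8e-09). SSA3 ranked 103rd from the lowest of the 5650 genes and SSA4 177th.

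Both genes were still detected in growing cells, with spots well above background in Cy5 on all 8 arrays. SSA3 spots had a Cy5 signal of 617 to 1065 for growing cells and a Cy3 signal of 5116 to 7397 for 64 h cells. SSA4 minus SSA3 was positive on 8 of 8 arrays, from 0.07 on the array recorded at 16 h to 1.23 on that recorded at 20 h (mean 0.62 ± 0.35 SD, exact sign-flip p = 0.0078, adjusted over 10 pairs 0.011). SSA4 minus SSA1 averaged -0.27 ± 0.42 and missed the threshold (exact sign-flip p = 0.12, adjusted 0.15), with SSA4 the lower on 6 of 8 arrays; with median centring in place of loess it was -0.87 and passed.

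The ribosome-bound pair was higher in growing cells. SSB1 had log2 ratios of 0.64, 0.74, 0.41, 0.48, 0.54, 0.28, 0.38 and 0.23 in the order of recorded time, and SSB2 had 0.02, 0.54, 0.56, 0.50, 0.39, 0.49, 0.74 and 0.31. All 16 values of the pair were above 0. SSB1 averaged 0.46 ± 0.04, or 1.38-fold (limma adjusted p = 4.1e-06), and SSB2 0.45 ± 0.07, or 1.36-fold (adjusted p = 0.00018). With median centring in place of loess SSB1 stood at 1.24 and SSB2 at 1.18.

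The pair could not be separated by its mean: SSB1 minus SSB2 averaged 0.02 ± 0.30 (SD, n = 8), ranged from -0.36 to 0.61 and had an exact sign-flip p of 0.89. SSB1 spots were saturated in Cy5 on 7 of the 8 arrays and SSB2 spots on 3, where a spot cannot report a higher level in growing cells. Like SSA1 and SSA2, SSB1 and SSB2 are near-identical copies whose cross-hybridization was not tested.

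In the Hsp110 branch, SSE2 was further below 0 than SSE1. SSE2, known as the stress-induced copy, had log2 ratios between -2.04 and -1.29 with a median of -1.63, and SSE1 between -0.81 and -0.26 with a median of -0.60. The ranges did not overlap. SSE2 averaged -1.64 ± 0.09, or 3.11-fold lower in growing cells (limma adjusted p = 1.4e-07), and SSE1 -0.57 ± 0.05, or 1.48-fold lower (adjusted p = 2.2e-06). With median centring in place of loess SSE2 stood at -1.69, and SSE1 stood at 0.05 and did not pass (limma adjusted p = 0.42). SSE2 minus SSE1 averaged -1.07 ± 0.41 (SD, n = 8) and was negative on 8 of 8 arrays (exact sign-flip p = 0.0078, adjusted 0.011), and -1.74 with median centring.

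The organelle Hsp70 genes were both below the ribosome-bound genes. KAR2, the chaperone of the endoplasmic reticulum that also pulls proteins in through the translocon, had log2 ratios of -0.93, -0.78, -0.67, -0.73, -0.72, -0.77, -0.73 and -0.78 in the order of recorded time. SSC1, the motor of mitochondrial protein import, had -1.24, -0.45, -0.66, 0.16, -0.31, -0.55, -0.31 and -0.93. By loess KAR2 was the steadiest member and SSC1 the only one with values on both sides of 0. The positive SSC1 value was that of the array recorded at 20 h, where its Cy5 spots were saturated. With the scanner ratio it was -0.25 there, and all SSC1 values were below 0. With median centring SSC1, KAR2 and SSE1 each had values on both sides of 0.

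KAR2 averaged -0.76 ± 0.04, or 1.70-fold lower in growing cells (limma adjusted p = 8.1e-08), and SSC1 -0.54 ± 0.13, or 1.45-fold lower (adjusted p = 0.0039). SSC1 averaged -0.74 on slide 1 and -0.20 on slide 2, and within slide 2 alone its mean missed the threshold (adjusted p = 0.33, 3 arrays). Its Cy5 spots were saturated on the arrays recorded at 20 h and 23 h. SSB1 minus KAR2 averaged 1.23 ± 0.21 and SSB1 minus SSC1 1.00 ± 0.46 (SD, n = 8), each positive on 8 of 8 arrays with an exact sign-flip p of 0.0078 (adjusted 0.011). KAR2 minus SSC1 averaged -0.23 ± 0.38 (exact sign-flip p = 0.13, adjusted 0.15). SSB1 minus SSA1 averaged 2.26 and SSE1 minus SSA1 averaged 1.23, both positive on 8 of 8 arrays with the same exact p. With SSB1 spots saturated in Cy5 on 7 of the 8 arrays, the sizes of the differences with SSB1 are uncertain.

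From lowest to highest mean ratio, the order was SSA3, SSA4, SSA1, SSE2, KAR2, SSE1, SSC1, SSB2, SSB1 and SSA2. Within it, SSA4 and SSA1, SSA1 and SSE2, KAR2 and SSE1, SSE1 and SSC1, and SSB2 and SSB1 differed by less than 1 SD of their within-array difference. SSE2 lay above SSA1 on 4 of 8 arrays, SSC1 above SSE1 on 4, and SSE1 above KAR2 on 7. The steps from SSE2 up to KAR2 (0.87 ± 0.31), from SSC1 up to SSB2 (0.98 ± 0.32) and from SSB1 up to SSA2 (1.42 ± 0.30) were larger than their SD and held on 8 of 8 arrays. Saturated Cy5 spots of SSC1, SSB2 and SSB1 leave the sizes of the steps that involve them uncertain.

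**Figure D3:**
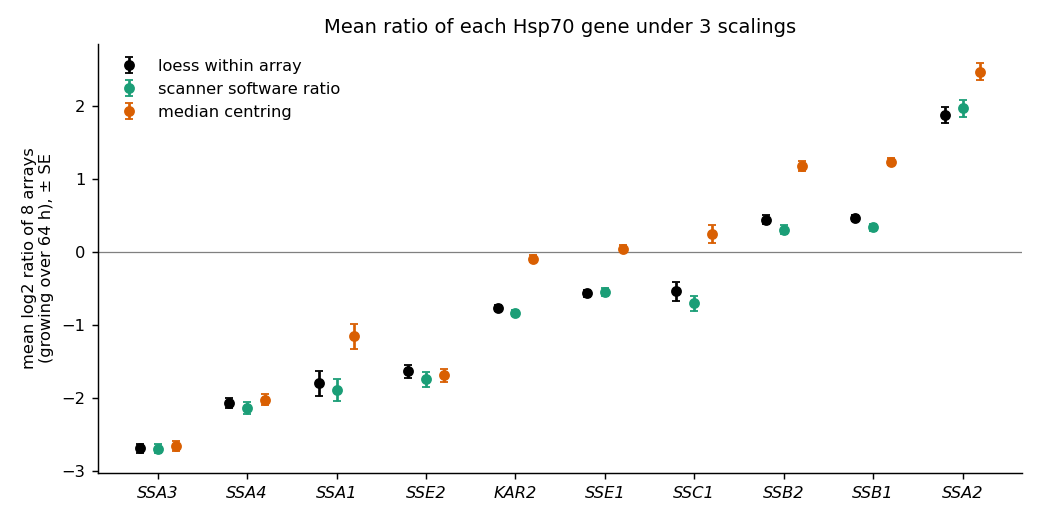
Mean log2 ratio of growing over 64 h cells for each Hsp70 gene (8 arrays, bars are SE), after loess within each array, with the ratio of the scanner software, and after median centring. The points of KAR2, SSE1 and SSC1 lie at -0.76, -0.57 and -0.54 after loess and at -0.09, 0.05 and 0.25 after median centring.

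The calls of KAR2, SSE1 and SSC1 depend on whether loess or median centring was used. With no dye swap, dye bias and a real difference at bright spots cannot be told apart. With median centring in place of loess they stood at -0.09, 0.05 and 0.25, and none of these passed (limma adjusted p = 0.092, 0.42 and 0.094). This left 4 members lower and 3 higher, against 40.4% lower and 41.1% higher of all genes with that scaling. Median centring moved the mean of the bright probes SSA1, SSA2, SSB1, SSB2, SSE1, KAR2 and SSC1 by 0.59 to 0.78, and that of the dimmer probes SSA3, SSA4 and SSE2 by -0.05 to 0.04. SSA1 stood at -1.16 and SSA2 at 2.47 after median centring, each with its call kept. The median over all tested genes moved by 0.03. With the scanner software's own dye correction, KAR2 stood at -0.84, SSE1 at -0.55 and SSC1 at -0.70.

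The second comparison asked whether Hsp70 genes changed over the sampled hours. With the arrays as recorded, limma called 0 members, as it called 0 of all genes; 2 members, SSB1 and SSE1, and 385 of all genes had an unadjusted p under 0.05. On the 6 arrays outside the mismatch, SSA1 rose. With those 2 times exchanged, SSA1, SSA4 and SSC1 rose. No member fell in these 3 fits.

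SSA1 rose by 0.18 ± 0.04 log2 units per h on the 6 arrays (SE; limma adjusted p = 0.020) and by 0.19 ± 0.03 with exchanged times (adjusted p = 0.0049). As recorded its slope was 0.10 ± 0.06 (adjusted p = 0.76). Its Cy5 signal moved by 0.15 per h over the 6 arrays after normalization, and its Cy3 signal, from a single RNA, by -0.03. Without the 16 h array the call on the 6 arrays was lost, with a slope of 0.16 and an adjusted p of 0.13, and without the 23 h array it was 0.12 with an adjusted p of 0.14. With exchanged times SSA1 passed without any 1 of the 8 arrays, at slopes of 0.16 to 0.22.

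SSA4 had a slope of 0.06 ± 0.02 on the 6 arrays (limma adjusted p = 0.074) and rose by 0.07 ± 0.01 with exchanged times (adjusted p = 0.0099). Its values on these 6 arrays ran from -2.30 at 16 h to -1.82 at 23 h with each value above the one before. SSC1 had 0.09 ± 0.03 on the 6 arrays (adjusted p = 0.13) and rose by 0.12 ± 0.03 with exchanged times (adjusted p = 0.035). Without any 1 of the arrays recorded at 16, 19, 20, 21 or 23 h, SSC1 missed the threshold in the exchanged fit, as it did there with the scanner ratio (slope 0.05, adjusted p = 0.29) and with median centring (0.10, adjusted p = 0.070). Among all genes, 5.2% rose and 3.17% fell on the 6 arrays, and 10.5% rose and 8.58% fell with exchanged times.

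**Figure D4:**
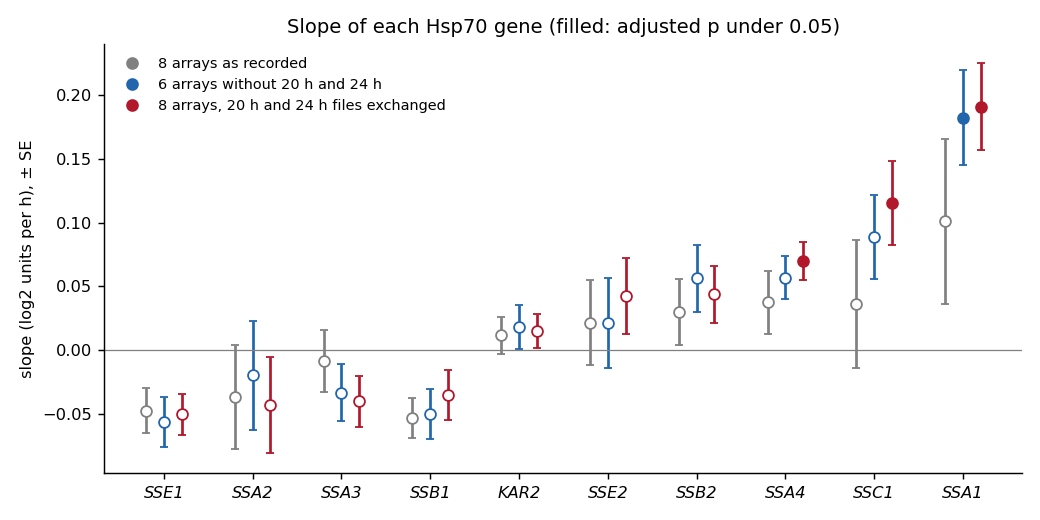
Slope of the log2 ratio on time for each Hsp70 gene, in log2 units per h with SE bars, for the 8 arrays as recorded, the 6 arrays without those recorded at 20 h and 24 h, and the 8 arrays with those times exchanged; filled points passed at an adjusted p of 0.05. SSA1 has the highest slope in each fit, 0.10, 0.18 and 0.19 per h.

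The slide moved the calls. With the slide as a block, SSA1, SSA4 and SSC1 rose and SSE1 fell, on the 6 arrays and with exchanged times. SSE1 fell by 0.05 per h in each of them (limma adjusted p = 0.036 and 0.0062), SSC1 rose by 0.10 in each (adjusted p = 0.0061 and 0.0029), and SSA4 rose by 0.06 and 0.07 (adjusted p = 0.030 and 0.0050). In these blocked fits 11.9% and 16.9% of all genes rose and 9.1% and 13.3% fell. As recorded, the blocked fit called 0 members and 0 genes.

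The other members did not pass in the 3 unblocked fits. On the 6 arrays, SSB2 had a slope of 0.06 ± 0.03 (limma adjusted p = 0.22), SSE2 0.02 ± 0.04 (0.75) and KAR2 0.02 ± 0.02 (0.56). SSE1 had -0.06 ± 0.02 (adjusted p = 0.11), SSA3 -0.03 ± 0.02 (0.40) and SSA2 -0.02 ± 0.04 (0.82). SSB1 had -0.05 ± 0.02 (0.15), which is uncertain as a rate with Cy5 saturated on 7 of 8 arrays.

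The authors' deposited table, whose values are centred on 0 for each gene, gave slopes at its own sample columns. By limma on that table, SSA1 rose by 0.16 ± 0.03 and SSA4 by 0.09 ± 0.02 log2 units per h (adjusted p = 0.0049 and 0.0057), against 15.9% of all genes rising. SSB1 fell by 0.07 ± 0.01 and SSE1 fell by 0.07 ± 0.01 (adjusted p = 0.0064 and 0.0040), against 18.8% falling. With SSB1 spots saturated in Cy5 on 7 of the 8 arrays, its fall is uncertain as a change in growing cells. SSC1 had 0.05 ± 0.02 (adjusted p = 0.14). In this table SSA1 ran from -0.72 at 16 h to 0.77 at 23 h and 0.61 at 24 h, and SSA2 stood at -0.87 at 24 h with its other columns between -0.16 and 0.46.

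Differences between members in slope were tested on the within-array difference of their log2 ratios, by exact permutation of the times. As recorded, 0 of 10 pairs passed after adjustment over the pairs, and 2, SSB1 minus KAR2 and SSB1 minus SSB2, had an unadjusted exact p under 0.05 (0.0067 and 0.019). On the 6 arrays 5 pairs passed and with exchanged times 8. These counts include SSB1 minus SSA1 and SSB1 minus SSC1 in both settings, and SSB1 minus SSB2 with exchanged times. SSB1 spots were saturated in Cy5 on 7 of the 8 arrays, so the slopes of pairs with SSB1 are uncertain as rates. SSA4 minus SSA3 had a slope of 0.09 per h on the 6 arrays (exact p = 0.0083, adjusted 0.021) and 0.11 with exchanged times (exact p = 0.0043, adjusted 0.0091).

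SSA1 stood apart from several members over time. SSA4 minus SSA1 had a slope of -0.12 per h in both of these settings (adjusted exact p = 0.042 on the 6 arrays and 0.025 with exchanged times), and SSE1 minus SSA1 had -0.24 in both (0.019 and 0.0060). SSA1 minus SSA2 had 0.20 on the 6 arrays (adjusted exact p = 0.052) and 0.23 with exchanged times (0.0091). KAR2 minus SSC1 had -0.07 (adjusted exact p = 0.14) and -0.10 (0.045).

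Members that moved together across arrays can be given as a description, over points that share the same arrays and Cy3 RNA. Over the 8 arrays SSA1 correlated with SSA4 at 0.93 and with SSC1 at 0.85, and SSB1 with SSE1 at 0.80. The value for SSB1 is uncertain, as its Cy5 spots were saturated on 7 of these arrays. SSA3 correlated with SSC1 at -0.95 and SSA2 with SSE2 at -0.89. SSA3 and SSA4, both known as stress-induced, correlated at -0.57, and SSA1 and SSA2 at -0.14.

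Among 5367 tested genes that were no members, had a value on every array and were never saturated, the 3 with the highest Pearson correlation to a member's log2 ratio over the 8 arrays were taken. For SSA1 they were CMK2, a calmodulin-dependent kinase gene, YMR262W and CCP1, for mitochondrial cytochrome c peroxidase (0.99, 0.98 and 0.98). For SSA4 they were MRX18, XKS1, for xylulokinase, and GOR1, for glyoxylate reductase, each at 0.99. The closest gene to SSA2 was BUD16 (0.95), to SSA3 STE4 (0.98), to SSB2 SEC12 (0.98), to SSE1 YBR238C (0.97), to SSE2 MSO1 (0.96), to KAR2 TRS33 (0.97) and to SSC1 YCP4 (0.99). These values are the highest of 5367 in each case.

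Partner genes of the Hsp70s were read from 8 lists with 68 genes, all tested. By limma 31 were higher in growing cells and 27 lower, with 10 short of the threshold, near the 40.3% and 42.6% of all genes. The lists differed in direction. Of 5 ribosome-associated chaperone genes, which work beside Ssb, 4 were higher and 0 lower, with 1 not passing and a median log2 ratio of 0.61, or 1.24 with median centring. ZUO1 and SSZ1, which form the ribosome-associated complex that drives Ssb, stood at 0.70 ± 0.07 and 0.61 ± 0.05 (SE, n = 8), and EGD1, of the nascent chain-associated complex, at 0.68 ± 0.04. With median centring these 3 stood at 1.39, 1.24 and 1.38. Also counted as higher was EGD2, at 0.23 ± 0.04 with Cy5 saturated on 7 arrays. It stood at -0.001 with the scanner ratio and 1.01 with median centring.

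Of 11 cytosolic J-domain genes 5 were higher, 4 lower and 2 did not pass, near the 40.3% higher and 42.6% lower of all genes. Their median was 0.01, or 0.16 with median centring. APJ1 stood at -1.90 ± 0.04, SIS1, an essential partner of Ssa, at -0.62 ± 0.05, HLJ1 at -0.41 ± 0.04 and YDJ1, the main cytosolic J-domain protein, at -0.21 ± 0.06. YDJ1 turned to 0.46 with median centring. The cytosolic exchange factor genes FES1 and SNL1 stood on opposite sides at -1.14 ± 0.07 and 1.14 ± 0.07.

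In the endoplasmic reticulum, 8 of 10 partner genes of KAR2 were higher in growing cells and 0 lower, against 40.3% and 42.6% of all genes. Among the higher genes, JEM1 turned from 0.14 to -0.08 with median centring. KAR2 itself was lower by loess, and with median centring it stood at -0.09 and was not called. The median of these partner genes was 0.23, or 0.51 with median centring. The translocon genes SEC71, SEC63 and SEC72 stood at 0.54 ± 0.04, 0.50 ± 0.05 and 0.56 ± 0.07, and SEC62 at 0.29 ± 0.04. LHS1, an Hsp70-related exchange factor for Kar2, stood at 0.04 ± 0.05 and did not pass (adjusted p = 0.52). Of 9 folding enzyme and unfolded protein response genes, 4 were higher and 2 lower, with 3 not passing and a median of -0.05 that became 0.17 with median centring and 0.05 with the scanner ratio. EUG1, a disulfide isomerase, stood at 0.65 ± 0.04, CNE1, the calnexin gene, at 0.31 ± 0.05, IRE1, the sensor kinase, at -0.52 ± 0.05, and PDI1, with saturated Cy5 spots on 5 arrays and saturated Cy3 spots on 1, at -0.26 ± 0.09, turning to 0.54 with median centring.

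Of 14 mitochondrial partners 6 were higher, 7 lower and 1 did not pass, near the 40.3% higher and 42.6% lower of all genes. Their median was -0.18 and became 0.16 with median centring. Among the lower genes, HSP60 stood at -0.60, with saturated Cy5 spots on 6 arrays and saturated Cy3 spots on 7. It turned to 0.23 with median centring. The mitochondrial Hsp70 relatives ECM10 and SSQ1 stood at -0.53 ± 0.05 and -0.68 ± 0.05, the J-domain gene MDJ1 at -0.85 ± 0.04 and the disaggregase gene HSP78 at -2.50 ± 0.10. MGE1, the exchange factor of Ssc1, stood at 0.62 ± 0.05, and the import motor genes PAM16 and PAM18 at 0.58 ± 0.03 and 0.72 ± 0.04.

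**Figure D5:**
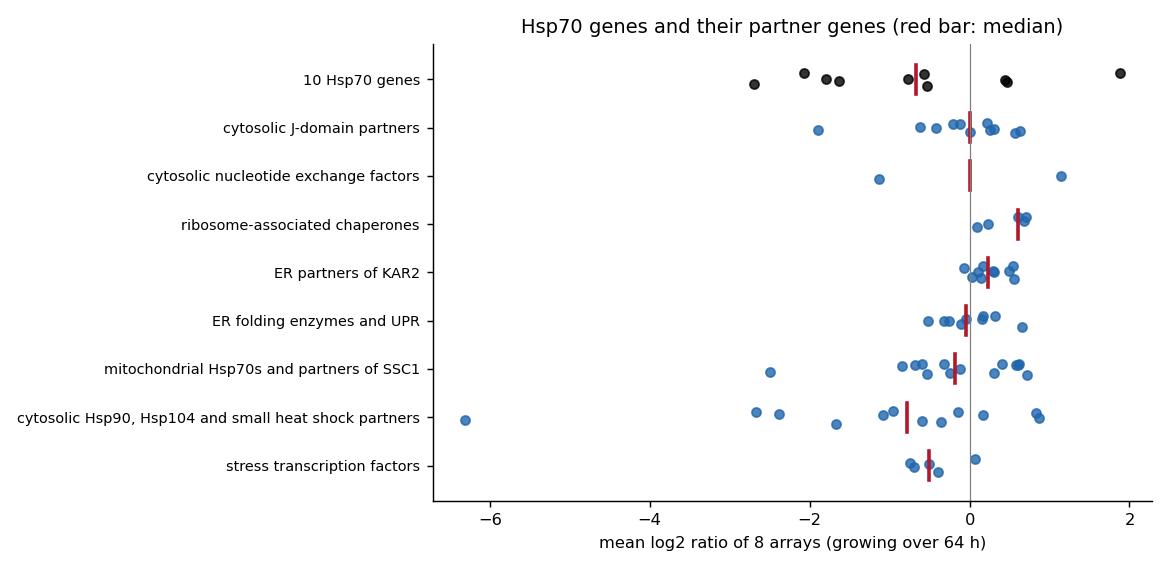
Mean log2 ratio over 8 arrays (growing over 64 h cells, loess) of the 10 Hsp70 genes, in black, and of 68 partner genes by list, in blue; each point is a gene, scattered vertically for legibility, and red bars are list medians. The ribosome-associated list has its median at 0.61 and the list of Hsp90, Hsp104 and small heat shock genes at -0.78.

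Of 12 cytosolic Hsp90, Hsp104 and small heat shock genes, 9 were lower in growing cells and 3 higher. Over all genes tested, 42.6% were lower and 40.3% higher. The median of the list was -0.78, or -0.43 with median centring. Among the lower genes, SBA1 turned from -0.36 to 0.40 with median centring and CDC37 from -0.14 to 0.02 with the scanner ratio. By loess HSP26 stood at -6.31, at least 79.2-fold lower, its Cy3 spots being saturated on all 8 arrays. With median centring it stood at -5.98, so this bound holds for the loess scaling only. HSP104, the disaggregase that works with Ssa, stood at -2.38 ± 0.12, HSP82, the heat-induced Hsp90 gene, at -1.68 ± 0.09, and the cyclophilin gene CPR6 at -1.09 ± 0.05, which became -0.45 with median centring. HSC82, the constitutive Hsp90 gene, stood at 0.17 ± 0.06 with Cy5 saturated on 7 arrays and turned to -0.08 with the scanner ratio and 0.96 with median centring. Of 5 stress transcription factor genes, 4 were lower and 0 higher, with HSF1, the heat shock factor gene, at -0.70 ± 0.04, MSN2 at -0.50 ± 0.05, MSN4 at -0.39 ± 0.07 and GIS1 at -0.74 ± 0.10. Of the 58 partner genes that passed, 5 changed sign with median centring and 3 with the scanner ratio.

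Over time, 2 partner genes rose and 3 fell on the 6 arrays, and 8 rose and 7 fell with exchanged times, out of 68. These counts are near the shares of all genes, 5.2% rising and 3.17% falling on the 6 arrays and 10.5% and 8.58% with exchanged times. CNS1, a co-chaperone that binds Hsp90 and Ssa1, fell by 0.09 per h on the 6 arrays (limma adjusted p = 0.033), FES1 fell by 0.07 (0.048) and YDJ1 fell by 0.06 (0.047). The rising genes were HSP42 and SBA1 at 0.11 each (adjusted p = 0.040 and 0.049), which were chosen after their values were seen because they complete the count. HSP104 had 0.09 ± 0.02 (adjusted p = 0.0502) and rose by 0.13 with exchanged times (adjusted p = 0.0085).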

How the data were processed

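Each deposited scanner file holds the intensity of every spot in Cy5 and Cy3, made with Agilent Feature Extraction 10.5.1.1 on a sacCer2 design per the file headers; the submitters' processing notes name the same software. They also hold that software's corrected log10 ratio of Cy5 over Cy3, as deposited, and flag columns. The authors' value table holds log2 ratios of 5609 genes, centred per gene from its values, with a normalization not given in the sources used here.

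Median signals were corrected with normexp (offset 50) and loess within each array (limma 3.58.1, R 4.3.3). Control and outlier spots were dropped, and replicate spots of each probe averaged. The 5650 genes tested were those well above background in Cy5, or in Cy3, on 4 or more arrays. Symbols came from the R64 table, where 5737 of 6225 names matched; its build is not the files', so coordinates are left out. A line on centred time was fitted with lmFit and eBayes: its intercept is the mean ratio, its slope the change per h. The intercept leaves out the spread of 64 h cells and keeps any dye bias. The exact tests on pairs of members flipped the sign of each array's difference or permuted the times. The fits and the exact tests were tested on simulated data.

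Named genes are the 10 members, the 3 partner genes per list with the smallest p for the mean ratio, the 1 with the smallest p for the slope on the 6 arrays, 12 fixed partners, and the 3 genes most alike to each member saturated on at most 4 arrays. HSP42, SBA1, EGD2, CDC37, HSP60 and JEM1 were named after their values were seen. The members and lists were chosen with earlier results of these data known. Alternatives were the scaling, the background, the filter, the slide, leaving out arrays and the authors' table. Precision is limited by the 8 arrays.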

Additional observations from a re-analysis of the deposited data

Results flagged for a closer look

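KAR2 had a log2 ratio of -0.93 on the array recorded at 16 h, and the nearest of its other 7 values was -0.78. That gap is 0.56 of its whole range, a size that chance gives in about 1 of 20 groups. The range itself was 0.26, below the median range of 0.47 over all tested genes. The 16 h array also had the lowest share of Cy5 spots above background, 84.1%; its part in the KAR2 value was not tested.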

How the results depend on the processing

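With median centring, 4 members were lower, against 40.4% of all genes, SSE1 stood at 0.047 and SSC1 at 0.25. On slide 2 alone 6 members were lower, SSC1 missing the threshold. The mean-ratio counts stayed at 3 higher and 7 lower under the other alternatives, leaving out each array included. For the slope, 0 members passed as recorded and with any array left out. Rising and falling members numbered 1 and 0 on the 6 arrays and 3 and 0 with exchanged times, 3 and 1 in both with the slide as a block, and 2 and 2 in the authors' table. In settings chosen after seeing the data, the scanner ratio gave 2 and 0 on the 6 arrays and 2 and 2 with exchanged times, and median centring 1 and 0, and 2 and 1. Slopes that changed sign against the recorded fit, none of them called, were 0.00031 for SSA3 with median centring, -0.0087 for SSB2, -0.014 for KAR2 and -0.0075 for SSC1 with the scanner ratio, 0.0025 for SSA2 on slide 1, -0.032 for SSB2 on slide 2, -0.017 for KAR2 in the authors' table, and -0.018 and -0.014 for KAR2 with the scanner ratio on the 6 arrays and with exchanged times. Leaving out 1 array gave slopes of -0.035 to 0.032 for SSA3, -0.011 to 0.057 for SSB2, -0.0040 to 0.018 for KAR2, -0.041 to 0.094 for SSC1, -0.10 to 0.0090 for SSA2 and -0.0065 to 0.068 for SSE2. The pair tests of the mean gave 7 passing pairs, and 7 to 8 with 1 array left out; SSB1 minus SSB2 then ranged from -0.067 to 0.071. SSE2 minus SSE1 became -1.74 and SSA4 minus SSA1 -0.87, which passed, with median centring. Pairs differing in slope numbered 0 as recorded, 0 to 1 with 1 array left out (SSB1 minus KAR2 without the 19 h array), 5 on the 6 arrays and 8 with exchanged times; with 1 array left out SSA4 minus SSA3 ranged from -0.0039 to 0.095 and KAR2 minus SSC1 from -0.075 to 0.037. The cause of these changes was not tested. Arrays were not paired with each other because they form 1 group, and the pair tests used differences within each array. Saturated Cy5 spots limit SSB1, SSB2 and SSC1.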
